A study of Mus musculus with 31 samples.

Results

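The genes described here encode SR proteins, hnRNPs and core spliceosome proteins, together with a few kinases and RNA-binding regulators that act on them. The list holds 44 genes, of which 40 had a probe set of their own on the Affymetrix Mouse 430 2.0 array, among 18193 genes that have one: 12 of 13 SR family genes, 14 of 15 hnRNP genes, 10 of 12 snRNP and core spliceosome genes, and all 4 kinases and RBM regulators. No probe set was listed for Srsf7, and Hnrnpa3, Snrpa and Snrpd1 were covered only by probe sets that several genes share, so these genes were not measured alone. Each gene was represented by its brightest probe set, the one with the highest mean level in an experiment, after the probe sets on the study's list of intronic probe sets had been set aside. A probe set was kept where its highest sample reached a level of 100, which is 6.64 on the log2 scale, and all 40 genes passed in every experiment.

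The study set mutant fetal liver hematopoietic stem cells (FL HSCs) and mouse embryonic fibroblasts (MEFs) against wild type (WT) cells in 4 experiments. Crebbp+/- and Ep300+/- FL HSCs and their Crebbp+/+ and Ep300+/+ controls came from C57BL/6 embryos, with 2 samples per genotype in each experiment and 2 arrays per sample. Cdkn1a-/- FL HSCs (4 samples) and their WT controls (3 samples) came from B6/129Sv stocks. Each FL HSC sample was a pool of 15 embryos at 14.5 dpc, sorted as Sca-1+, Lin-, AA4.1+, c-Kit++ cells, and 12 ng of its RNA was amplified before hybridization. Crebbp+/- and Crebbp+/+ MEFs on C57BL/6 came from 1 embryo each of litters 1 to 4. All mutations were carried in the germ line, so the cells around the stem cells were mutant too, and WT and null Cdkn1a mice were separate stocks. The deposited levels were normalized within each experiment, so a level is compared here only between samples of the same experiment.

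Pre-mRNA splicing is carried out by the spliceosome, in which small nuclear ribonucleoproteins (snRNPs) recognize the ends of an intron and catalyse its removal. SR proteins bind exonic sequences and mostly favour the use of nearby splice sites, whereas hnRNPs often oppose it, and the CLK and SRPK kinases set the activity of SR proteins by phosphorylating them. Crebbp and Ep300 encode CBP and p300, paralogous acetyltransferases that coactivate CREB and many other transcription factors, and Cdkn1a encodes the cell cycle inhibitor p21.

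Arrays of the same sample correlated at 0.9886 to 0.9942 (Pearson's r over probe sets). In the FL HSC samples 9 or 10 of 10 listed HSC genes reached the minimum level. Of 11 listed fibroblast genes, 9 reached it in no FL HSC sample, while Pdgfrb did in 2 Crebbp, 1 Ep300 and all 7 Cdkn1a experiment samples and Fn1 in those 7. In MEFs all 11 fibroblast genes reached it in every sample, as did the HSC-listed Mecom, Meis1 and Runx1, with Gata2 in 3 samples and the other 6 HSC genes, Ptprc and Kit among them, in none. The Crebbp probe set 1435224_at was lower in Crebbp+/- than in WT MEFs in 4 of 4 litters, by -0.79 on the log2 scale, but differed by 0.07 (SE 0.135) in FL HSCs, where the Crebbp probe set 1434633_at differed by 0.01 and the dim 1436983_at by -0.42 (SE 0.158, adjusted p 0.196), lower in both pairs. The Ep300 probe set 1434765_at differed by -0.10 and the Cdkn1a probe set 1424638_at by -1.66 in their own experiments. Where these probe sets lie relative to the disrupted part of each gene was not given in the sources used here, so they do not check the FL HSC labels. WT sample 3 of the Cdkn1a experiment stood apart, with a summed hepatocyte marker level of 107422 against 423 to 3679 in the other 6 samples. In the Crebbp FL HSC experiment that sum was also uneven, at 58 and 890 in WT and 320 and 469 in Crebbp+/- samples. Its part in the member values was not tested.

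None of the 40 splicing factor genes was called in any of the 4 comparisons. A call was an adjusted p under 0.05 (limma, Benjamini-Hochberg over all probe sets tested) with a fold change over 1.5, and calls made up 0.383% of all probe sets tested for Crebbp+/- FL HSCs, 0% for Ep300+/- FL HSCs, 0.405% for Cdkn1a-/- FL HSCs and 0% for Crebbp+/- MEFs. At an unadjusted p under 0.05 limma gave 1 member in Crebbp+/- FL HSCs and 3 in Crebbp+/- MEFs. It gave 0 in Ep300+/- FL HSCs and 0 in Cdkn1a-/- FL HSCs. The test of the study's methods adds filters on fold and spread and gave 0 in each comparison with and without adjustment. That result was fixed by the fold filter, because no member passed a fold of 1.5 in any comparison. The largest fold among the 40 genes was 1.26 in both Crebbp comparisons, 1.19 in Ep300+/- and 1.25 in Cdkn1a-/- FL HSCs. These are measurements on RNA from whole sorted or cultured populations, in which fewer cells of a type and less RNA per cell cannot be told apart.

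**Figure D1:**
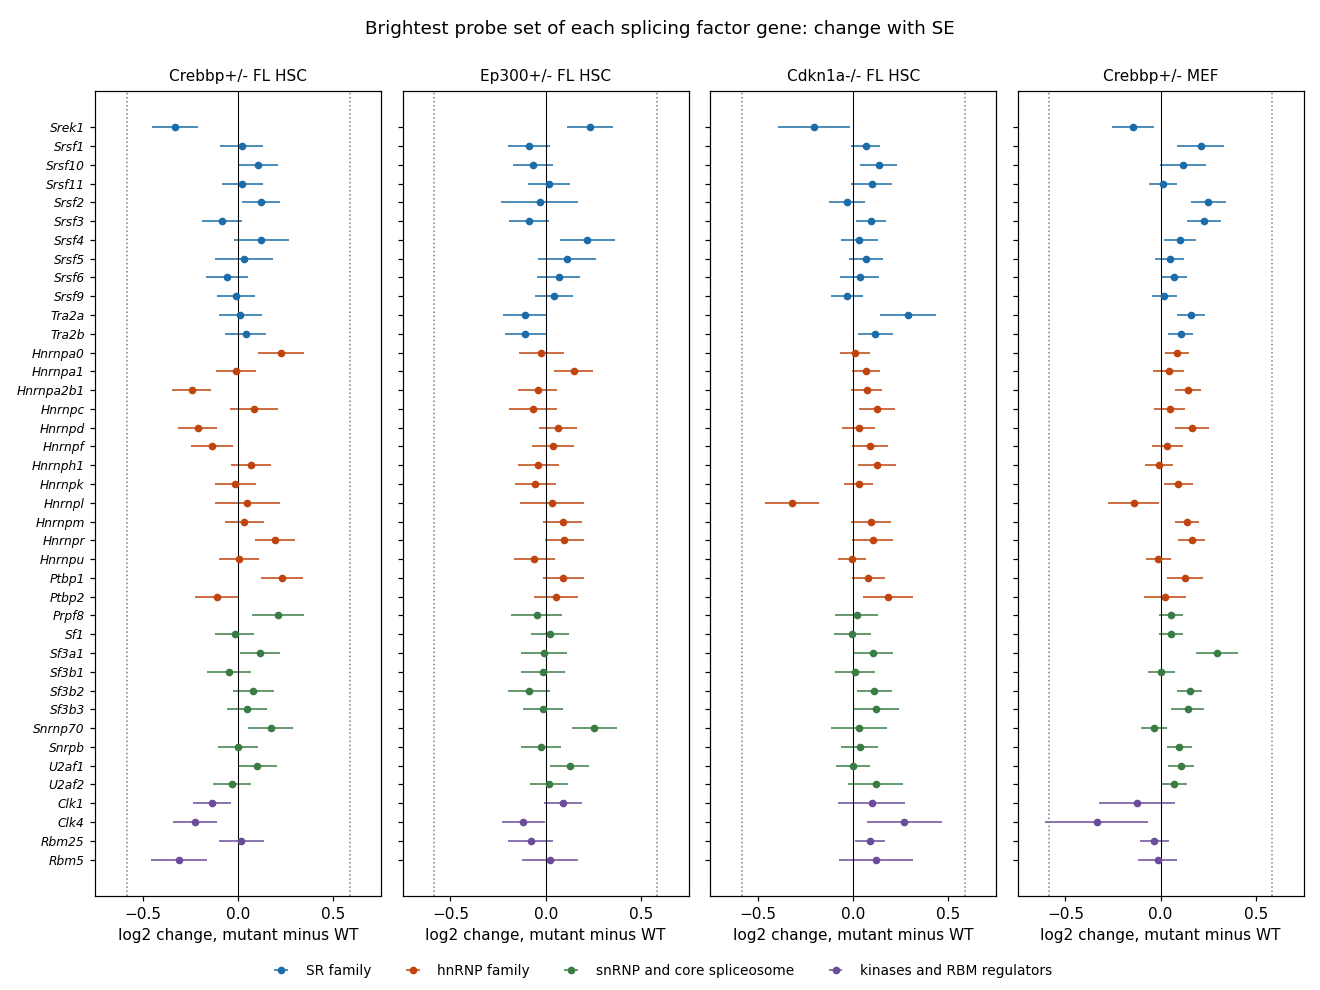
Log2 difference, mutant minus WT, of the brightest probe set of each of the 40 splicing factor genes (points, coloured by class) with its limma standard error (bars) in the 4 comparisons; dotted lines mark a fold of 1.5. No point lies beyond a dotted line, and the lowest point is Clk4 in MEFs at -0.34.

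In Crebbp+/- FL HSCs the brightest probe sets of the 40 genes stayed close to WT. Their median difference was 0.0165 on the log2 scale, against 0.0484 over all 13332 probe sets tested, and single genes ranged from -0.33 to 0.23. The median size of the difference, regardless of sign, was 0.082 for the 40 genes and 0.171 for the brightest probe sets of all 7600 named genes. The members were also brighter, with a median level of 11 against 8.67, and the part that level plays in this contrast was not tested.

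The classes lay close together. The median difference was 0.0200 for the SR family, 0.0176 for the hnRNP family and 0.0623 for snRNP and core proteins. With arrays centred on their medians these became -0.0233 for the SR family and 0.0190 for snRNP and core proteins, and the median of all 40 genes became -0.0268, so the sign of the SR and overall medians depends on the scaling. Within a pair of samples, the SR median was 0.0125 in pair 1 and 0.0415 in pair 2, the hnRNP median was -0.0245 and 0.0510, and the snRNP median was 0.0465 and 0.0390. Of the 4 kinases and RBM regulators 3 were lower, with a median of -0.18. No class was tested as a set.

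**Figure D2:**
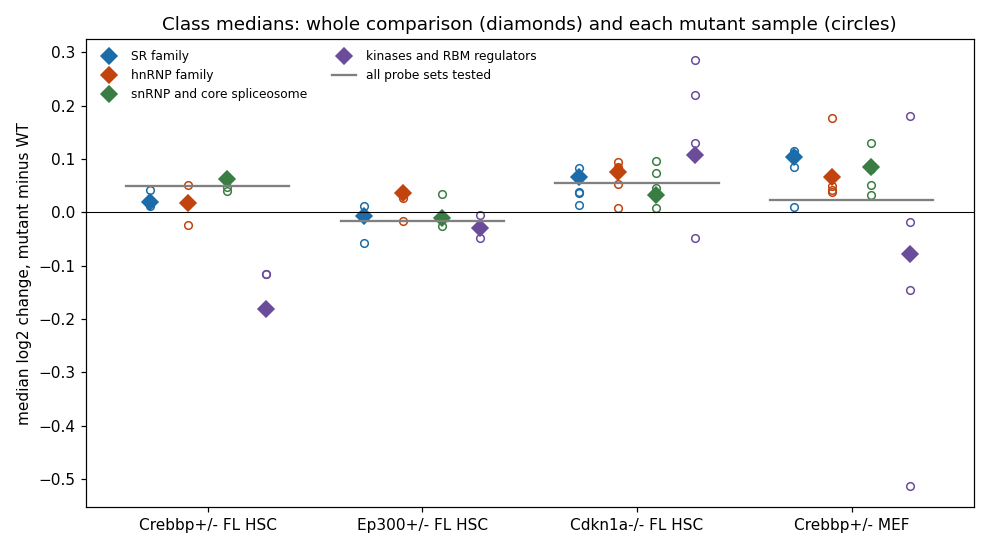
Median log2 difference, mutant minus WT, of each class of splicing factor genes in each comparison (diamonds), the same median for each mutant sample against its paired WT sample, or against the mean of the WT samples for Cdkn1a (open circles), and the median over all probe sets tested (grey lines). The SR, hnRNP and snRNP diamonds lie between -0.01 and 0.11, and the kinase and RBM circles of the MEF litters spread from -0.51 to 0.18.

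Among SR family genes in Crebbp+/- FL HSCs the smallest p belonged to Srek1, an SR-related regulator of splicing. Its probe set 1457392_at read 10.21 and 10.24 in the WT samples and 10.02 and 9.76 in the Crebbp+/- samples (log2 level, samples 1 and 2). Both mutant samples lay below both WT samples, and the difference was -0.33 (SE 0.121, adjusted p 0.19). It was the only member below an unadjusted p of 0.05, beside 6.45% of the brightest probe sets of all named genes that were lower at that level and 13.4% that were higher. The other 11 SR genes lay between -0.08 and 0.12, with Srsf4 at 0.12, Srsf2 at 0.12 and Srsf3 at -0.08.

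Among hnRNPs the pyrimidine tract binding repressor Ptbp1 lay highest and Hnrnpa2b1, which binds UAG-containing RNA, lowest. Hnrnpa2b1 read 12.66 and 12.53 in WT and 12.47 and 12.22 in Crebbp+/- samples, a difference of -0.25 (SE 0.103, adjusted p 0.233). Ptbp1 read 9.43 and 9.54 in WT and 9.64 and 9.79 in Crebbp+/- samples, a difference of 0.23 (SE 0.109, adjusted p 0.276). For neither gene did the groups overlap, but with 2 samples per genotype groups often separate by chance, as for Srek1 above. Both differences were far from the adjusted threshold. Hnrnpd, which also binds AU-rich elements of mRNAs, read 10.94 and 11.32 in WT and 10.75 and 11.09 in mutant samples, so that it was lower within each pair by -0.21 (SE 0.100, adjusted p 0.272) while the groups overlapped.

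The core spliceosome member with the smallest p was Prpf8, the central scaffold of the catalytic core. It read 8.65 and 8.80 in WT and 8.66 and 9.22 in Crebbp+/- samples, a difference of 0.21 (SE 0.135, adjusted p 0.408) that came almost wholly from pair 2. Of the regulators, Rbm5, an RNA-binding protein that acts on splicing of apoptosis genes, read 9.52 and 9.59 in WT and 8.98 and 9.51 in mutant samples. Its mutant samples were both lower, one of them by little, and the difference was -0.31 (SE 0.148, adjusted p 0.278). The kinase Clk4 differed by -0.23 and Clk1 by -0.14.

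Most of these genes are represented by several probe sets, and the dimmer ones behaved differently from the brightest in Crebbp+/- FL HSCs. Besides the 40 brightest, 65 probe sets of 26 of the genes were tested, and none was called, with a smallest adjusted p of 0.0542. At an unadjusted p under 0.05, 9 of the 65 were higher (13.8%) and 11 were lower (16.9%), whereas among the dimmer probe sets of all named genes 18.8% were higher and 8.37% were lower. The share that was higher was thus below that background and the share that was lower above it, and neither contrast was tested. The lower share counts some probe sets near or below the minimum level in the Crebbp samples, given below. Over all 13332 probe sets, named or not, 14.5% were higher and 9.53% were lower. The median size of difference of the 65 dimmer member probe sets was 0.226, close to the 0.22 of dimmer probe sets of all named genes.

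The 11 lower probe sets belonged to 8 genes and had differences of -0.97 to -0.27, and 7 of them passed a fold of 1.5. Srsf11, an SR-like protein linked to the U2AF complex, had the largest. Its probe set 1439095_at read 6.19 and 6.72 in WT and 5.10 and 5.96 in Crebbp+/- samples, a difference of -0.92 (SE 0.126, adjusted p 0.0542). The brightest Srsf11 probe set differed by 0.02. The Srsf11 probe set 1430077_at differed by -0.97 (SE 0.2, adjusted p 0.0865). In the Crebbp experiment only WT sample 2 reached the minimum level on either dim Srsf11 probe set. A filter on the highest sample can favour such differences, so they are given as a description. The Tra2b probe set 1441466_at, lower by -0.60, read 5.47 and 6.17 in WT and 5.03 and 5.42 in Crebbp+/- samples. It reached the minimum level in no Crebbp experiment sample and was tested only through the Ep300 samples of the joint fit. In 8 of the 11 lower probe sets both group means reached the minimum level.

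Tra2b encodes a Transformer-2 protein that binds GAA-rich exonic enhancers. Its probe set 1446496_at read 8.04 and 8.40 in WT and 7.22 and 7.89 in Crebbp+/- samples, a difference of -0.66 (SE 0.123, adjusted p 0.0788), whereas the brightest Tra2b probe set differed by 0.04. Hnrnpu, a nuclear scaffold protein, was lower on 1434391_at, with 11.46 and 12.17 in WT and 11.001 and 11.456 in mutant samples. That difference was -0.58 (SE 0.115, adjusted p 0.0825), and the second Hnrnpu probe set 1434390_at differed by -0.73. The brightest Hnrnpu probe set differed by 0.0035. Rbm25 on 1437862_at differed by -0.64 and Rbm5 on 1441319_at by -0.55.

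The 9 higher probe sets belonged to 6 genes, with differences of 0.32 to 0.93. Hnrnpf, which binds runs of G, had the smallest p, on 1423382_a_at, with 10.17 and 8.49 in WT and 10.80 and 9.39 in Crebbp+/- samples. The WT samples differed from each other by more than the genotypes did, and within pairs the difference was 0.76 (SE 0.117, adjusted p 0.062). The Hnrnpf probe set 1450963_at had the largest difference, 0.93 (SE 0.203, adjusted p 0.091), and the brightest Hnrnpf probe set differed by -0.14.

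Srsf1, the founding SR protein, was higher on 3 probe sets, and on 1428100_at it read 9.01 and 8.74 in WT and 9.53 and 9.32 in mutant samples. That difference was 0.55 (SE 0.102, adjusted p 0.0788), with 0.0175 on the brightest Srsf1 probe set. Srsf3, the smallest SR protein, was the only gene with probe sets on both sides. It was higher on 1416151_at, by 0.38 (SE 0.129, adjusted p 0.17), and lower on 1438215_at, where WT samples read 7.86 and 7.37 and mutant samples 7.43 and 6.94, a difference of -0.43 (SE 0.100, adjusted p 0.0967). Which exons or introns these probe sets match was not given in the sources used here. The brightest probe sets of Srsf1 and Hnrnpu (suffix s_at) and of Hnrnpf (suffix x_at) are of kinds that can match several transcripts, as are some dimmer ones.

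**Figure D3:**
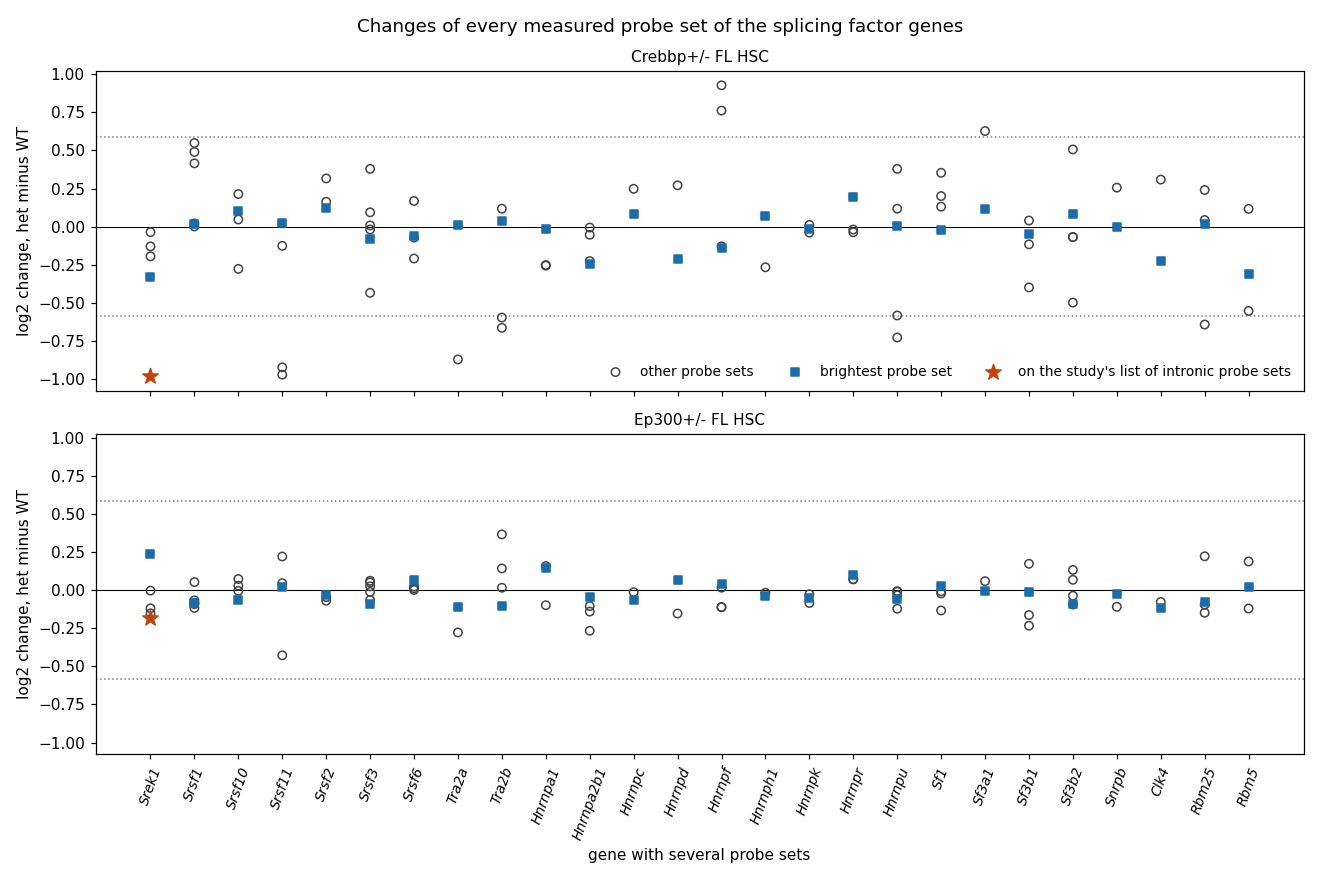
Log2 difference, het minus WT, of every measured probe set of the splicing factor genes with several probe sets, in Crebbp+/- FL HSCs (top) and Ep300+/- FL HSCs (bottom); squares mark the brightest probe set, open circles the others, the star the Srek1 probe set on the study's intronic list, and dotted lines a fold of 1.5. In the upper panel open circles reach from -0.97 to 0.93 while squares stay between -0.33 and 0.23; in the lower panel open circles lie between -0.43 and 0.36.

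**Figure D4:**
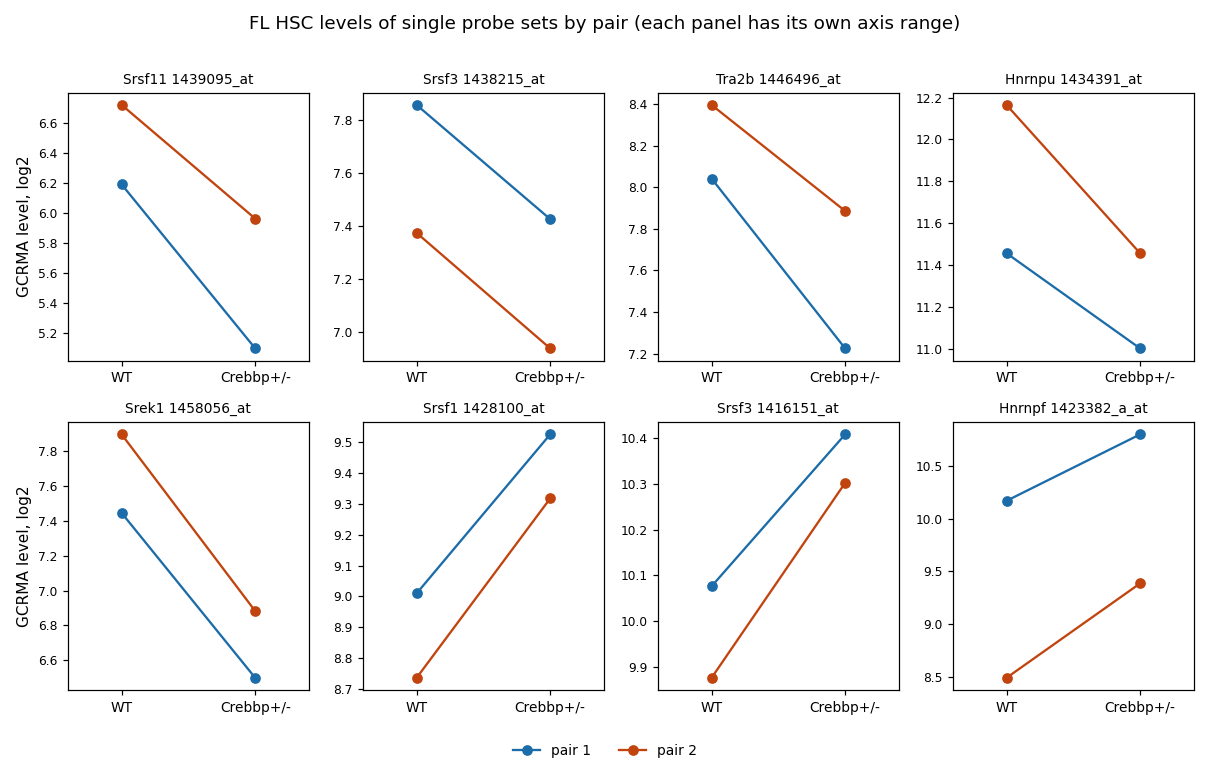
Log2 level of 8 single probe sets in WT and Crebbp+/- FL HSCs, with a line joining the samples of each pair; the axis range differs between panels. The lines of both pairs slope down for Srsf11, Srsf3 1438215_at, Tra2b, Hnrnpu and Srek1 1458056_at and up for Srsf1, Srsf3 1416151_at and Hnrnpf.

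Srek1 was also the only one of these genes with a probe set on the study's list of intronic probe sets. That list was drawn up on these FL HSC samples, so its values are given as a description. Probe set 1458056_at read 7.45 and 7.90 in WT and 6.50 and 6.88 in Crebbp+/- FL HSCs, a difference of -0.98. The other Srek1 probe sets in that comparison differed by -0.19 (1427134_at), -0.13 (1427136_s_at) and -0.04 (1427135_at), so every Srek1 probe set measured was lower by some amount. In Ep300+/- FL HSCs 1458056_at differed by -0.18 and in Cdkn1a-/- FL HSCs by 0.29, and it did not reach the minimum level in MEFs.

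In Ep300+/- FL HSCs the 40 genes were centred on WT, with 20 higher and 20 lower and a median of 0.00412 (all probe sets -0.0155). The class medians were -0.00637 for SR, 0.0359 for hnRNP and -0.0109 for snRNP and core genes. No member passed an unadjusted p of 0.05, beside 2.15% of all probe sets that were higher and 2.13% that were lower. Of the 65 dimmer probe sets 1 was higher at that level (1.54%) and 0 were lower. It was Tra2b 1446496_at, with 8.53 and 7.96 in WT and 8.84 and 8.37 in Ep300+/- samples, a difference of 0.365. All adjusted p values were 1.

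The smallest p belonged to Snrnp70, the U1 snRNP protein that takes part in recognition of the upstream splice site. It read 9.72 and 9.80 in WT and 9.83 and 10.19 in Ep300+/- samples, a difference of 0.25 (SE 0.118). Srek1 read 9.79 and 9.82 in WT and 10.05 and 10.04 in Ep300+/- samples, a difference of 0.23 (SE 0.121). For both genes the mutant samples lay above the WT samples, which 2 samples per genotype often give by chance.

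The other SR gene among the 5 smallest p values was Srsf4, which read 8.17 and 7.61 in WT and 8.17 and 8.04 in Ep300+/- samples, a difference of 0.22 (SE 0.145) that was seen in pair 2 alone. Hnrnpa1, a repressor that binds exonic silencers, read 11.79 and 11.75 in WT and 11.98 and 11.86 in mutant samples, a difference of 0.15 (SE 0.104). U2af1, which recognizes the AG at the end of an intron, read 10.85 and 10.84 in WT and 11.02 and 10.93 in mutant samples, a difference of 0.13 (SE 0.102). For Hnrnpa1 and U2af1 the mutant samples lay above the WT samples, with differences only somewhat larger than their standard errors. These errors come from the joint fit with the Crebbp samples. Clk4 read 11.03 and 10.97 in WT and 10.96 and 10.81 in mutant samples, a difference of -0.12 (SE 0.115).

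Whether the loss of a Crebbp allele and of an Ep300 allele affected these genes differently was tested directly as the Crebbp effect minus the Ep300 effect. No member was called, nor any of the 13332 probe sets (0%). One member passed an unadjusted p of 0.05, beside 8.82% of all probe sets with a higher and 6.37% with a lower Crebbp effect. That member was Srek1, with -0.33 in Crebbp+/- and 0.23 in Ep300+/- FL HSCs, a difference of -0.57 (SE 0.171, adjusted p 0.258). Among the dimmer probe sets 6 had a higher and 8 a lower Crebbp effect at that level, none called. For Tra2b 1446496_at the difference of effects was -1.03 (SE 0.174, adjusted p 0.165). It was -0.86 (SE 0.151, adjusted p 0.17) for Rbm25 1437862_at and 0.87 (SE 0.165, adjusted p 0.181) for Hnrnpf 1423382_a_at. In that order the Crebbp differences were -0.66, -0.64 and 0.76 and the Ep300 differences 0.365, 0.221 and -0.113. Each Ep300 difference thus had the opposite sign and adds to the contrast.

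In Cdkn1a-/- FL HSCs 33 of the 40 genes were higher and 7 lower, with a median of 0.0754, while 62.2% of all 20962 probe sets were higher, with a median of 0.0549. The class medians were 0.0652 for SR, 0.0754 for hnRNP and 0.0328 for snRNP and core genes. No member passed an unadjusted p of 0.05, beside 4.19% of all probe sets that were higher and 3.1% that were lower. WT sample 3, which carries the hepatocyte transcripts, weighs on these values. Its summed erythroid marker level was 10975 against 36 to 65 in the other samples, and its macrophage level 20414 against 5096 to 10736. Of 7 macrophage genes 6 reached the minimum level in it, but only Csf1r in each other sample. Its granulocyte sum was 84771 against 31951 to 55589 and its megakaryocyte sum 5920 against 503 to 928. Without it the median of the 40 genes was 0.0146 and that of snRNP and core genes -0.0106, and without WT sample 2 they were 0.106 and 0.104. The part of those transcripts in the member values was not tested.

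Hnrnpl, which binds CA repeats, had the smallest p. It read 11.85, 11.86 and 11.85 in WT and 11.21, 11.76, 11.48 and 11.68 in Cdkn1a-/- samples. The WT samples nearly coincided and all 4 null samples lay below them, by -0.32 on average (SE 0.144, adjusted p 0.695). Without WT sample 3 the difference was -0.32 as well.

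Tra2a, a Transformer-2 paralog of Tra2b, read 12.14, 12.32 and 11.99 in WT and 12.22, 12.38, 12.73 and 12.43 in null samples, a difference of 0.29 (SE 0.147, adjusted p 0.715). Ptbp2, the paralog of Ptbp1 best known from neurons, read 12.18, 12.18 and 11.79 in WT and 12.12, 12.31, 12.34 and 12.16 in null samples, a difference of 0.18 (SE 0.131, adjusted p 0.72). Clk4 read 12.38, 12.46 and 11.79 in WT and 12.37, 12.71, 12.58 and 12.26 in null samples, a difference of 0.27 (SE 0.197, adjusted p 0.72). In all 3 genes the groups overlapped and WT sample 3 was lowest of all, and without it the differences were 0.21, 0.05 and 0.06.

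Srsf10, an SR protein that represses splicing when dephosphorylated, read 12.63, 12.73 and 12.53 in WT and 12.71, 12.64, 12.82 and 12.89 in null samples, a difference of 0.13 (SE 0.0982, adjusted p 0.72). Sf3b2, a subunit of the U2 snRNP, read 14.00, 14.09 and 13.90 in WT and 14.07, 14.02, 14.22 and 14.11 in null samples, a difference of 0.11 (SE 0.0908, adjusted p 0.727). Srek1 read 11.37, 11.57 and 12.02 in WT and 11.16, 11.47, 11.68 and 11.47 in null samples, a difference of -0.21 (SE 0.189, adjusted p 0.748). The groups of these genes overlapped, and for Srek1 WT sample 3 was the highest, with a difference of -0.03 without it.

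In Crebbp+/- MEFs 31 of the 40 genes were higher and 9 lower than in WT litter mates, with a median of 0.0701 (all 15502 probe sets 0.0228, of which 57.9% were higher). SR genes had a median of 0.104, with 11 of 12 higher, hnRNP genes 0.0663, with 11 of 14 higher, and snRNP and core genes 0.0840, with 9 of 10 higher. With arrays centred on their medians the class medians were 0.0864, 0.0490 and 0.0668. All 4 kinases and RBM regulators were lower, with a median of -0.08. At an unadjusted p under 0.05, 3 of the 40 brightest probe sets were higher (7.5%) and none lower, beside 3.32% of the brightest probe sets of all named genes that were higher and 3.38% that were lower, and 3.29% and 3.35% of all probe sets. With any 1 litter left out, 0 or 1 member lay under that p.

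The 3 genes were Srsf2, Srsf3 and Sf3a1. Srsf2, an SR protein that also takes part in transcription elongation, read 11.52, 11.85, 11.72 and 11.53 in WT and 12.03, 11.95, 11.92 and 11.72 in Crebbp+/- MEFs (litters 1 to 4). Every mutant embryo exceeded its litter mate although the groups overlapped, and the difference was 0.25 (SE 0.0905, adjusted p 0.714). Its probe set is of the kind that can match several transcripts (suffix s_at), as is the x_at probe set of Sf3b2.

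Srsf3 read 12.25, 12.53, 12.55 and 12.42 in WT and 12.73, 12.70, 12.72 and 12.49 in Crebbp+/- MEFs, higher in 4 of 4 litters by 0.23 (SE 0.0898, adjusted p 0.745). Sf3a1, a U2 snRNP subunit needed for branch site binding, read 8.82, 9.12, 8.94 and 8.92 in WT and 9.32, 9.48, 9.34 and 8.86 in mutant MEFs, higher in 3 of 4 litters by 0.30 (SE 0.110, adjusted p 0.714). In litter 1 Srsf2, Srsf3 and Sf3a1 differed by 0.48 to 0.51, the largest difference of any litter for each.

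Sf3b2 read 10.83, 10.66, 10.73 and 10.45 in WT and 10.97, 10.75, 10.94 and 10.62 in mutant MEFs, higher in 4 of 4 litters by 0.15 (SE 0.0645, adjusted p 0.752). Hnrnpr, a relative of Syncrip, read 11.15, 11.10, 11.19 and 10.98 in WT and 11.33, 11.24, 11.24 and 11.27 in mutant MEFs. It was higher in 4 of 4 litters, by 0.16 (SE 0.0715, adjusted p 0.753). Clk4 read 7.95, 6.29, 6.80 and 7.39 in WT and 6.59, 6.50, 6.55 and 7.44 in mutant MEFs. Its difference of -0.34 (SE 0.270, adjusted p 0.803) was 0.004 without litter 1, and it was lower in only 2 of 4 litters. Srek1, represented in MEFs by 1427136_s_at, read 9.15, 8.47, 8.73 and 8.98 in WT and 8.70, 8.48, 8.50 and 9.07 in mutant MEFs, a difference of -0.15 (SE 0.109, adjusted p 0.792) with 2 litters on each side.

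**Figure D5:**
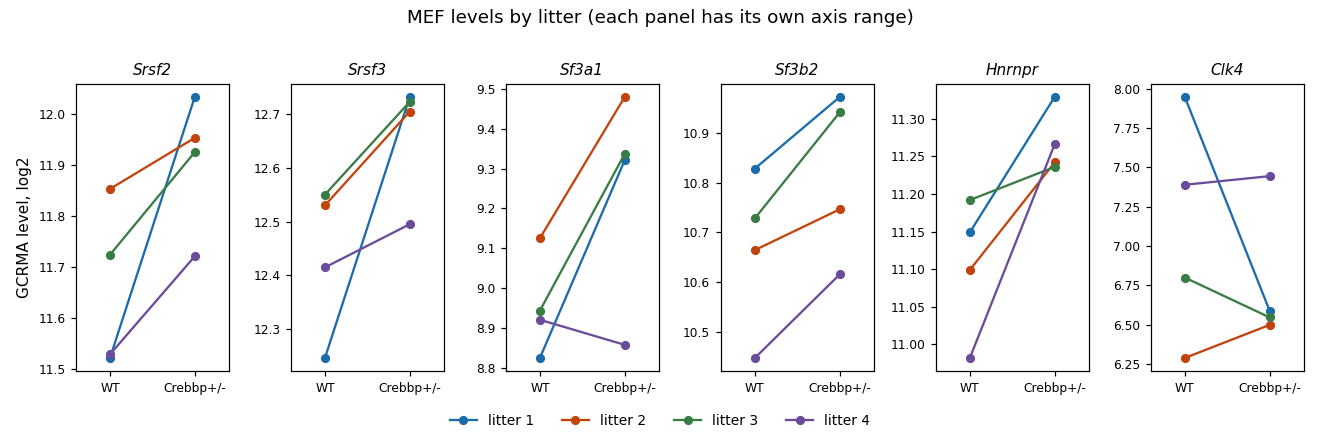
Log2 level of the brightest probe set of 6 splicing factor genes in WT and Crebbp+/- MEFs, with a line joining the embryos of each litter; the axis range differs between panels. All 4 lines slope up for Srsf2, Srsf3, Sf3b2 and Hnrnpr, 3 of 4 for Sf3a1, and 2 of 4 slope down for Clk4.

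Of the dimmer probe sets of these genes in MEFs, 8 of 65 were higher at an unadjusted p under 0.05 (12.3%) and 1 was lower (1.54%), beside 3.26% and 3.48% for the dimmer probe sets of all named genes; none was called. The 8 belonged to 3 SR genes. Srsf6, an SR protein of many exonic enhancers, was higher on 3 probe sets, and on 1416720_at it read 8.68, 8.61, 8.63 and 8.40 in WT and 9.051, 8.852, 9.004 and 8.624 in Crebbp+/- MEFs. Each mutant embryo lay above its litter mate, by 0.30 on average (SE 0.0679, adjusted p 0.562). Srsf1 was higher on 3 probe sets by 0.21 to 0.39, and Srsf3 on 2 by 0.25.

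Probe sets of one gene share their RNA and often their sequence, so these counts are not independent of each other. The lower probe set was Srsf3 1438215_at, which read 6.22, 6.26, 6.69 and 6.37 in WT and 6.04, 5.87, 6.25 and 6.24 in mutant MEFs and was lower in 4 of 4 litters by -0.28 (SE 0.0833, adjusted p 0.658). It passed the filter on level through a single WT sample. The same probe set was lower in both pairs of Crebbp+/- FL HSCs, by -0.43, and differed by -0.01 in Ep300+/- and 0.26 in Cdkn1a-/- FL HSCs. Srsf1 1428100_at likewise was higher in both Crebbp comparisons, by 0.55 in FL HSCs and 0.39 in MEFs, with -0.08 in Ep300+/- FL HSCs. FL HSC and MEF effects were not tested against each other.

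A wider list of 122 other splicing genes, of which 114 had a probe set, gave no call in any comparison either (limma). Their median difference was 0.0182 in Crebbp+/- FL HSCs, -0.0005 in Ep300+/- FL HSCs, 0.0562 in Cdkn1a-/- FL HSCs and 0.0686 in MEFs. In MEFs 92 of 110 were higher, beside 57.9% of all probe sets, and in Cdkn1a-/- FL HSCs 82 of 109, beside 62.2%. The counts were 59 of 104 in Crebbp+/- and 50 of 105 in Ep300+/- FL HSCs, beside 57.7% and 45.1%. These contrasts were not tested. At an unadjusted p under 0.05, 7 of 104 were higher and 4 lower in Crebbp+/- FL HSCs, 1 of 105 higher in Ep300+/- FL HSCs, 1 of 109 higher in Cdkn1a-/- FL HSCs and 4 of 110 higher in MEFs. These shares, 6.73% and 3.85% in Crebbp+/- FL HSCs, 0.952% in Ep300+/- FL HSCs, 0.917% in Cdkn1a-/- FL HSCs and 3.64% in MEFs, were below or close to the shares over all genes or probe sets given above.

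In Crebbp+/- FL HSCs the smallest p of that list belonged to Clk3, a kinase of SR proteins. It had a level of 9.24 ± 0.133 in WT and 8.68 ± 0.249 in mutant samples (SD, n = 2), a difference of -0.56 (SE 0.107, adjusted p 0.0797). Srpk2, another such kinase, lay the other way, by 0.68 (SE 0.129, adjusted p 0.0799), and was higher in both pairs. Crnkl1, a protein of the complex that activates the spliceosome, differed by 0.86 (SE 0.174, adjusted p 0.084).

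Cwc25, a factor of the first catalytic step, was the first of the list in Ep300+/- FL HSCs (0.83, SE 0.115, adjusted p 1) and differed by 0.32 in MEFs (SE 0.0952, adjusted p 0.658). In Ep300+/- FL HSCs it was followed by Rbm22 at 0.32 and the helicase Dhx38 at -0.24. Srpk2 headed the list in Cdkn1a-/- FL HSCs, higher in 4 of 4 null samples by 0.40 (SE 0.114, adjusted p 0.437), followed by Snrnp35 of the minor spliceosome at 0.40 and Rbm6 at 0.47. In MEFs Prpf18, a factor of the second step, differed by 0.25 and the helicase Ddx39b by 0.17, each higher in 4 of 4 litters.

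CBP was named for its binding to CREB, whose palindromic site is TGACGTCA. The sequence of 250 bases before to 50 after the start was given for 40 of the 44 genes (RefSeq, GRCm38.p6). It was missing for Clk1, Snrpb, Snrpd1 and U2af2, so these 40 are not the 40 genes measured. Of the 40 with a sequence, 3 (7.5%) held this site. The site was held by 2.03% of all 27025 genes with a sequence and 3.84% of 6278 genes measured in the Crebbp and Ep300 FL HSC samples. The 3 members were Tra2a, Clk4 and Snrpa, which was not measured alone. The shorter site TGACG, which is part of the palindrome, was found on either strand in 26 of the 40 (65.0%). It was found in 23.0% of all genes with a sequence and 38.7% of the genes measured. Bases around the palindrome, shown in capitals because it is the letters searched for, are printed for the 2 measured genes, 5′ to 3′ on the strand of the gene.
Tra2a, minus strand, chr6:49264061-49264090: ggtccgcccctTGACGTCAggcgccgggga
Clk4, plus strand, chr11:51263038-51263067: cccgccgtcccTGACGTCAcagacccctcg
The palindrome ends 20 bases before the start in Tra2a and 58 bases before it in Clk4. The brightest Tra2a probe set differed by 0.01 in Crebbp+/- FL HSCs, -0.11 in Ep300+/- FL HSCs, 0.29 in Cdkn1a-/- FL HSCs and 0.16 in Crebbp+/- MEFs, and that of Clk4 by -0.23, -0.12, 0.27 and -0.34, and none of these passed an unadjusted p of 0.05. Dimmer probe sets of both genes read otherwise. Tra2a 1442886_at, among the lower probe sets above, read 8.01 and 7.75 in WT and 7.43 and 6.59 in Crebbp+/- FL HSCs. It differed by -0.87 there and by -0.28 in Ep300+/- FL HSCs. Clk4 1427663_a_at differed by 0.31 and -0.08 in these comparisons. A match is a description of these letters and says nothing of what binds there.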

How the data were processed

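The authors hybridized 31 Affymetrix Mouse 430 2.0 arrays and deposited log2 levels, normalized by GCRMA within each experiment; the labels give the same amplification kit for MEF RNA, whereas the methods describe it as unamplified. Of 45101 probe sets 64 were controls and were left out. GEO's platform annotation gave 34945 probe sets 1 gene, 932 several and 9160 none, and symbols were updated through Entrez IDs. The array number limits the precision, and where nothing tells separate pools apart p-values measure only the spread between these samples.

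Technical replicates were averaged. A probe set was tested if any sample of the fit had a level of at least 100 (6.64 on the log2 scale), using limma 3.58.1 in R 4.3.3 and Benjamini-Hochberg adjustment over all of them: the Crebbp and Ep300 FL HSC samples in 1 fit with the pairs of samples as blocks, MEFs with litter as block, and Cdkn1a without a block. The study's methods pair WT and mutant samples, and the labels give the litters. Deviations of samples with the same number from their group means correlated at 0.7 (Crebbp FL HSC), 0.396 (Ep300 FL HSC) and 0.186 to 0.461 (MEF litters), but at -0.0448 to 0.287 for Cdkn1a, whose numbers pair nothing. The scripts were tested on simulated data.

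Members and lists were chosen with earlier results of these data known. All members may be named; levels of every sample are given for the 5 smallest p of each comparison, the smallest of each class, and Srek1, and the dimmer probe sets shown were chosen after their values were seen. Of the other splicing genes the 3 smallest p of each comparison are named. Alternatives covered the block, the samples of the fit, single technical replicates, leaving out samples, the filter, the scaling, the probe set per gene, a prior with a trend and the methods' test (a paired t-test, unpaired for Cdkn1a, fold over 1.5, interquartile range of at least 0.5). Figures were drawn with matplotlib 3.10.9.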

Additional observations from a re-analysis of the deposited data

Results flagged for a closer look

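In the Crebbp+/- MEF group the sample of litter 4 stood apart from the other 3 for 4 probe sets. It was lowest for Srsf3 1416150_a_at (12.495), Srsf3 1454993_a_at (10.756) and Srsf1 1430982_at (10.393) and highest for Clk4 1422886_a_at (7.445). The gap to its neighbour took 0.886 to 0.952 of the range of the group. Of 39 groups of 4 examined, chance would flag about 1 in 20, and the probe sets of Srsf3 are not independent.

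Srsf3 was lower in both pairs of Crebbp+/- FL HSCs, by -0.084 (SE 0.106) on 1416150_a_at, a difference smaller than its standard error. On the same probe set it was higher in all 4 litters of Crebbp+/- MEFs, by 0.228 (SE 0.0898). The other Srsf3 probe sets in Crebbp+/- FL HSCs lay on both sides, from -0.434 to 0.379. For Hnrnpa2b1 the brightest probe set was a different one in each tissue, 1433830_at in FL HSCs (-0.245, lower in both pairs) and 1420365_a_at in MEFs (0.142, higher in 4 of 4 litters). On a shared probe set no such contrast was seen, as 1420365_a_at differed by -0.006 in FL HSCs and 1433830_at by -0.0813 in MEFs. The difference between tissues was not tested for either gene, and 20 members were set side by side.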

How the results depend on the processing

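The count of members called was 0 in all 4 comparisons, and in the Crebbp effect minus the Ep300 effect, under every alternative run, while the calls over all probe sets in Crebbp+/- FL HSCs went from 51 to 0 without the replicate block, 208 with centred arrays, 143 after quantile normalization again, 223 with every sample at the minimum level and 876 with a trend in the prior. The replicate block on numbers 1 to 3 took the calls over all probe sets in Cdkn1a-/- FL HSCs from 85 to 6, and without the replicate block Crebbp+/- MEFs had 2 calls in place of 0. The paired and unpaired fits changed no other call. Of 260 alternative values of these counts and of class medians 214 stayed the same and 46 moved. A count stayed the same if it equalled the main count, and a median if it moved by less than the spread between samples. That spread was the SD of the medians of single mutant samples, from only 2 pairs in each heterozygous FL HSC experiment. The medians of MEFs all stayed within it. In Crebbp+/- FL HSCs the median of all members was 0.00975 and 0.0290 with technical replicate 1 or 2 alone, -0.0268 with centred arrays, -0.016 after quantile normalization again, 0.0253 with the mean over probe sets and -0.00675 to -0.006 with a pair left out. There the SR median was -0.0233, -0.0219, -0.00998 and -0.0234 with centred arrays, quantile normalization, the mean over probe sets and the most variable probe set, and -0.0345 to 0.0415 with a pair left out. The snRNP median there was 0.0355 and 0.082 with technical replicate 1 or 2, 0.019, 0.0179, 0.113 and 0.135 under those 4 settings, and 0.039 to 0.0465 with a pair left out. In Ep300+/- FL HSCs technical replicate 2 alone gave 0.0602 for all members, 0.0677 for SR and 0.0713 for hnRNP genes, and the hnRNP median was -0.0503 with technical replicate 1, -0.0254 with the mean over probe sets and -0.0182 with the most variable one. With a pair left out, the Ep300 medians were -0.0352 to 0.0168 for all members, -0.0582 to 0.0127 for SR, -0.016 to 0.0267 for hnRNP and -0.026 to 0.034 for snRNP genes. In Cdkn1a-/- FL HSCs leaving out a sample gave 0.0146 to 0.106 for all members, 0.0325 to 0.104 for SR, 0.0337 to 0.0965 for hnRNP and -0.0106 to 0.104 for snRNP genes. There centred arrays gave 0.045 for all members and 0.0348 for SR genes, quantile normalization 0.0513 for all members, the mean over probe sets 0.109 for SR and 0.0978 for snRNP genes, and the most variable probe set 0.104 for all members, 0.238 for SR and 0.117 for snRNP genes. Of 318 alternative values of single genes 10 changed sign: Hnrnpd (0.0286, mean over probe sets) and Rbm5 (0.116, most variable probe set) in Crebbp+/- FL HSCs, Clk4 (0.0255, technical replicate 1), U2af1 (-0.0665, technical replicate 2) and Srek1 (-0.0104 and -0.153, mean over probe sets and most variable probe set) in Ep300+/- FL HSCs, Srek1 (0.0939 and 0.258, the same settings) in Cdkn1a-/- FL HSCs, and Srsf3 (-0.281, most variable probe set) and Clk4 (-0.519 to 0.004 with a litter left out) in MEFs. The causes were not tested. With 2 pairs in each heterozygous FL HSC experiment and separate stocks for Cdkn1a, small differences are beyond what these arrays can show.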
